A study of Mus musculus with 12 samples.

Results

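The H2 genes are the mouse major histocompatibility complex (MHC) genes, and 39 of the 21212 probe sets measured in these mouse livers carried exactly 1 gene symbol that starts with H2-. Membership was decided from the gene symbol alone, with no expression value used. By symbol, 2 of them are classical class Ia heavy chains (H2-K1 and H2-D1), 26 are class Ib genes of the Q, T and M series or alone, and 10 are class II genes. The remaining symbol, H2-Ke6, belongs to a steroid dehydrogenase that lies among the MHC genes and is no MHC molecule. Liver RNA was compared between C57BL/6J mice, the strain from which the mouse reference genome was read, and KK mice, which are inbred and prone to obesity and diabetes. There were 4 groups of 3 mice each: C57BL/6J females, C57BL/6J males, KK females and KK males, with 1 Affymetrix whole-transcript array for every mouse. All 12 mice were 8 weeks old, ate chow, spent 3 days in single cages and 4 hours without food, and PBS was run through the liver before its large lobe was taken. The labels give the KK strain as KK/HIJ in one field and as KK/J in another, and they record neither litters nor array batches. The replicate numbers below are those of the sample titles, and they name a mouse only.

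MHC class I heavy chains pair with beta-2 microglobulin, carry peptides from inside the cell to its surface, and show them to CD8 T cells and natural killer cells. Class Ib molecules share this fold but vary less between strains and often serve a narrower ligand or receptor, while class II molecules are made of an alpha and a beta chain and show peptides from engulfed material to CD4 T cells. In liver, class I is transcribed by nearly every cell including hepatocytes, whereas class II comes mainly from the resident macrophages called Kupffer cells, from dendritic cells, and from the endothelium of the sinusoids.

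Many class I genes carry a promoter element that is read by NF-kappaB and interferon-driven factors, and the windows below show where its letters were found in the strain-affected genes that had a promoter in the RefSeq table (build GRCm38.p6). In H2-T23 neither GGGATTCCC nor GTTTCACTT was found, and its window is placed on the general motif TTTCNNTTT. The table held a promoter for 31 of the 39 genes, and H2-Ab1, H2-Bl, H2-Ea, H2-K2, H2-Q1, H2-Q8, H2-T10 and H2-T24 had none there. Each window is 65 bases long and is written 5′ to 3′ on the gene's own strand. Capitals mark exact matches to GGGATTCCC, a kappaB site, to GTTTCACTT, the core of the class I interferon response element, or to TTTCNNTTT, a general form of an interferon response element that overlaps GTTTCACTT in H2-T22. The letters are those of the reference genome, and the sequence of KK was not analysed here.
H2-K1 (chr17:34000414-34000478, minus strand): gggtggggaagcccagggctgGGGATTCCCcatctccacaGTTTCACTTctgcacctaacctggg
H2-D1 (chr17:35262903-35262967, plus strand): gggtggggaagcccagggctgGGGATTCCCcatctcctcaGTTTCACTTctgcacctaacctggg
H2-Q4 (chr17:35379423-35379487, plus strand): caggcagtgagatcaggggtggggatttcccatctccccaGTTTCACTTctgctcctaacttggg
H2-Q6 (chr17:35424657-35424721, plus strand): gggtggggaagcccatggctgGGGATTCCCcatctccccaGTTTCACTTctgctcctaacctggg
H2-Q7 (chr17:35439001-35439065, plus strand): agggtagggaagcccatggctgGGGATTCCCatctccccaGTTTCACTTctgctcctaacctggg
H2-Q10 (chr17:35469893-35469957, plus strand): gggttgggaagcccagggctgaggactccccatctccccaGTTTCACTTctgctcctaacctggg
H2-T22 (chr17:36042910-36042974, minus strand): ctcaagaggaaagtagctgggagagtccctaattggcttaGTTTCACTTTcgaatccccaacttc
H2-T23 (chr17:36032801-36032865, minus strand): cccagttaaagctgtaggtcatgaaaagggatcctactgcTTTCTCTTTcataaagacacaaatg

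The interferon motif begins 91 bases before the transcription start of H2-K1, 151 before that of H2-D1, 192 before that of H2-T22 and 114 to 156 before those of the 4 Q genes shown. Over both strands of the 250 bases before each start, GTTTCACTT was found in 111 of 32851 promoters (0.338%), and 9 of the H2 genes were among them. The kappaB letters were found in 99 promoters (0.301%), those of H2-K1, H2-D1, H2-Q6 and H2-Q7 included and no other H2 gene. Both motifs together were found in 5 promoters (0.0152%), the 2 listed for H2-K1 and those of H2-D1, H2-Q6 and H2-Q7. The exact kappaB letters were not found in the promoters of H2-Q4 and H2-Q10. TTTCNNTTT was found in 3079 promoters (9.37%), including those of H2-T22, H2-T23, H2-T3, H2-DMa and H2-M11. These matches describe the reference letters and say nothing of which factor was bound.

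The arrays were alike in range, with medians of 5.90 to 6.03 on the log2 scale, and no pair of arrays held identical values. Correlations of arrays, taken over probe sets that are not independent of each other, were 0.992 to 0.996 within groups and 0.975 to 0.993 between groups. Xist and 3 Y-linked genes separated the 6 female from the 6 male arrays as labelled. The 8 hepatocyte markers, albumin among them, averaged 12.88 to 13.02 in every array. The Y-linked genes were taken as a rough level of untranscribed genes, 3.79 to 4.66 in the female arrays. All group means of 6 M series genes (H2-M1, H2-M2, H2-M10.1, H2-M10.5, H2-M10.6 and H2-M11) lay at or below 4.66, so these 6 were not told apart from background. Probes bind with different strength, so this level from 3 genes is only a guide for other probe sets. Apart from it, levels of different probe sets were not set against each other.

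Between the strains, 10 MHC genes differed in liver, 8 of the 26 class Ib genes and 2 of the 2 class Ia genes. The genes for the natural killer cell ligand Qa-1 (H2-T23), the gamma-delta T cell ligand H2-T22 and the Qa-2 molecule (H2-Q7) were 2.77-fold to 4.07-fold lower in KK, and H2-T10, the close relative of H2-T22, was 2.80-fold higher. Whether these probe sets keep similar genes apart, or are affected by KK sequence differences, was not tested. Smaller differences were called for H2-Q6, H2-Q4, H2-T24, both classical genes and H2-Q10. No class II gene was called. Over both sexes, 10 of the 39 H2 genes passed limma's test at an adjusted p under 0.05 (Benjamini-Hochberg over all probe sets), 8 of them lower and 2 higher in KK. Of all probe sets, 11.7% were called in this comparison, 6.31% lower and 5.42% higher. The median strain difference was -0.05 log2 over the H2 genes and 0.01 over all probe sets. At least 2-fold calls made up 4 of the 39 H2 genes, against 0.863% of all probe sets. In 6 H2 genes the values of the 6 KK mice did not overlap those of the 6 C57BL/6J mice, against 5.98% of all probe sets.

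**Figure D1:**
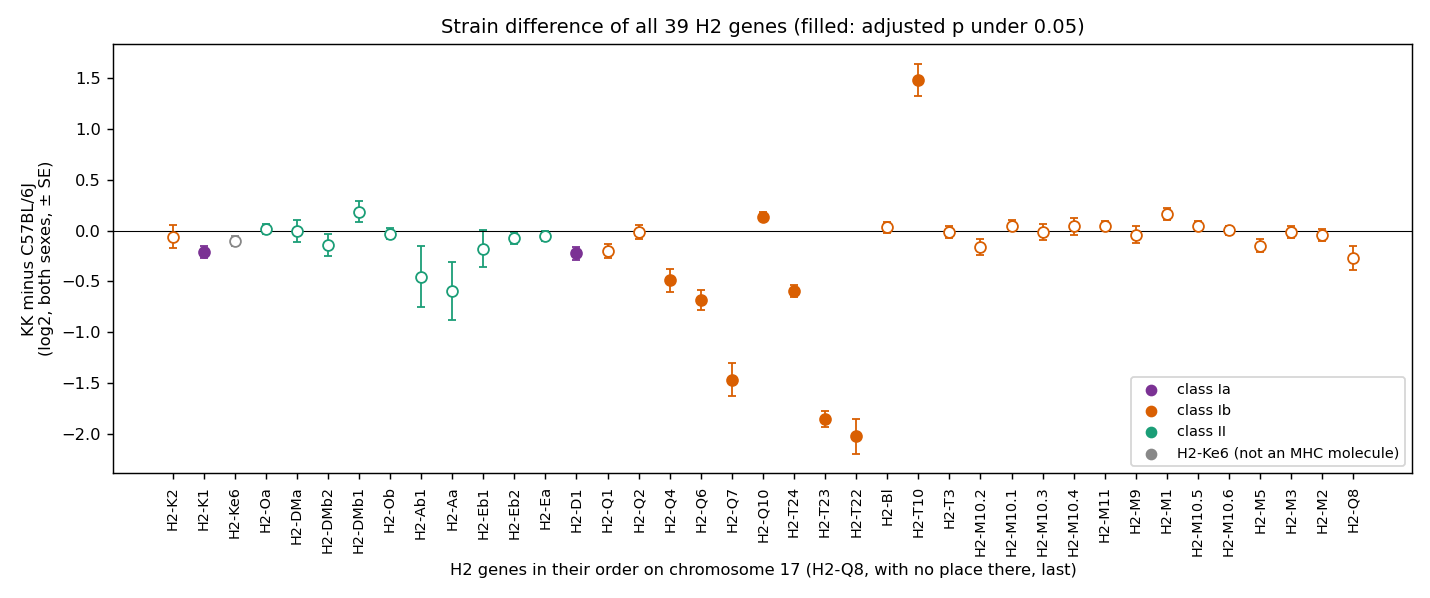
Strain difference (KK minus C57BL/6J over both sexes, log2 scale, points with limma's standard errors) of the 39 H2 genes, 38 in their order on chromosome 17 and H2-Q8, which has no place in that order, last, coloured by class, with called genes filled. The 3 genes lowest in KK are H2-Q7, H2-T23 and H2-T22, H2-T10 is the highest, and the class II genes and the M series lie open near or below 0.

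The T series held the largest differences. H2-T23 encodes the heavy chain of Qa-1, which shows a leader peptide of other class I molecules to the natural killer cell receptor CD94/NKG2A. Its log2 values were 10.48, 10.35 and 10.70 in C57BL/6J females, 10.09, 10.24 and 10.01 in C57BL/6J males, 8.91, 8.64 and 8.53 in KK females, and 8.15, 8.15 and 8.36 in KK males. Every KK mouse lay more than 1 log2 unit below every C57BL/6J mouse, and within each strain every male lay below every female. The strain difference was -1.86 log2 (SE 0.08, 3.62-fold lower in KK, adjusted p = 3.0e-08). It was -1.82 in females (SE 0.12, adjusted p = 1.8e-06) and -1.89 in males (SE 0.12, adjusted p = 1.3e-06).

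H2-T22 encodes a class Ib protein that binds no peptide and is recognised directly by some gamma-delta T cells. It stood at 10.03, 10.01 and 10.07 in the C57BL/6J females and at 9.85, 9.82 and 9.20 in the males of that strain. KK females gave 8.56, 7.67 and 8.09, and KK males gave 7.56, 7.05 and 7.90. All 6 KK values were below all 6 C57BL/6J values, and the spread among mice was wider in KK females (SD 0.45) than in C57BL/6J females (SD 0.03). The gene was lower in KK by -2.03 log2 (SE 0.17, 4.07-fold, adjusted p = 9.6e-06), with -1.93 in females (adjusted p = 4.5e-04) and -2.12 in males (adjusted p = 2.6e-04).

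H2-T10 is the neighbour of H2-T22 with the most similar protein in the strains that make it, and RefSeq lists it as a transcribed pseudogene in the reference genome. It went the opposite way. C57BL/6J females had 6.55, 6.42 and 6.21, C57BL/6J males 6.18, 5.72 and 5.11, KK females 7.97, 7.49 and 7.81, and KK males 7.13, 7.15 and 7.55. Every KK value lay above every C57BL/6J value, and the 3 C57BL/6J males lay below the females of their strain. The difference was 1.48 log2 (SE 0.16, 2.80-fold higher in KK, adjusted p = 6.3e-05), 1.36 in females (adjusted p = 0.0031) and 1.61 in males (adjusted p = 0.0012). H2-T10 and H2-T22 are alike in sequence. Whether their probe sets keep them apart was not tested, so each value is uncertain as to which of the pair it reads.

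H2-T24 was lower in KK in both sexes. Its values were 6.54, 6.38 and 6.50 in C57BL/6J females and 6.15, 6.44 and 6.36 in C57BL/6J males, against 5.89, 5.79 and 5.78 in KK females and 5.74, 5.73 and 5.85 in KK males. The strains did not overlap, and the difference was -0.60 log2 (SE 0.06, 1.51-fold lower, adjusted p = 2.8e-05). The last T gene, H2-T3, which encodes the thymus leukaemia antigen, had group means of 5.01 to 5.08 and a strain difference of -0.01 (adjusted p = 0.94).

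In the Q series, 3 of 7 genes were called lower and 1 was called higher in KK over both sexes (6.31% and 5.42% of all probe sets). H2-Q6, H2-Q7 and H2-Q8 belong to the group of near-identical genes behind Qa-2, a class Ib molecule that is anchored in the membrane by a lipid. H2-Q7 read 8.44, 8.14 and 8.21 in C57BL/6J females, 7.96, 8.55 and 8.25 in C57BL/6J males, 7.39, 6.37 and 6.88 in KK females, and 6.93, 6.41 and 6.77 in KK males. No KK mouse reached the lowest C57BL/6J mouse, and the sexes overlapped within each strain. The gene was lower in KK by -1.47 log2 (SE 0.16, 2.77-fold, adjusted p = 7.3e-05), by -1.38 in females (adjusted p = 0.0029) and by -1.55 in males (adjusted p = 0.0016).

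For H2-Q6, C57BL/6J females had 8.86, 8.63 and 8.81, C57BL/6J males 8.43, 8.79 and 8.34, KK females 8.50, 8.08 and 8.04, and KK males 7.65, 7.60 and 7.85. The strains were apart within each sex but overlapped across the sexes, since KK female 1 lay above C57BL/6J males 1 and 3. The difference was -0.69 log2 (SE 0.10, 1.61-fold lower, adjusted p = 6.1e-04), with -0.82 in males (adjusted p = 0.0045). In females it was -0.56 (adjusted p = 0.034). That female call was lost without C57BL/6J female 1 or 3, KK female 2 or 3, or KK male 1, and with only the compared groups in the fit (highest adjusted p 0.120). H2-Q8 had group means of 8.20 to 8.58 and was not called (-0.27 log2, SE 0.12, adjusted p = 0.18). Cross-reading of the Qa-2 genes by each other's probes was not tested, so the split of the signal among H2-Q6, H2-Q7 and H2-Q8 is uncertain.

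H2-Q4 encodes the class Ib molecule Qb-1. Its values were 7.95, 7.65 and 8.05 in C57BL/6J females, 7.66, 7.91 and 7.69 in C57BL/6J males, 7.92, 7.42 and 7.60 in KK females, and 6.85, 6.87 and 7.31 in KK males. KK males lay below all other mice, while KK females overlapped the C57BL/6J females. Over both sexes it was lower in KK by -0.49 log2 (SE 0.11, 1.41-fold, adjusted p = 0.012). It was called in males (-0.74, adjusted p = 0.016) and not in females (-0.24, adjusted p = 0.53), and the test of the difference between the sexes gave -0.50 (adjusted p = 0.77). Without C57BL/6J male 2, KK male 1 or KK male 2 the male call was lost (highest adjusted p 0.0760).

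H2-Q10 encodes a soluble class I molecule that hepatocytes secrete into the blood. The values were 11.37, 11.35 and 11.43 in C57BL/6J females, 11.42, 11.47 and 11.43 in C57BL/6J males, 11.55, 11.54 and 11.58 in KK females, and 11.57, 11.57 and 11.49 in KK males. Every KK value was above every C57BL/6J value, with a small difference of 0.14 log2 (SE 0.04, 1.10-fold higher, adjusted p = 0.044). That call was lost in 12 of 20 alternatives, among them those without any single array except C57BL/6J female 3 and KK male 3 (highest adjusted p 0.117). H2-Q1 had group means of 6.62 to 6.96 and H2-Q2 of 6.18 to 6.24, and neither was called over both sexes (H2-Q1 -0.21, adjusted p = 0.080, and H2-Q2 -0.01, adjusted p = 0.96).

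**Figure D2:**
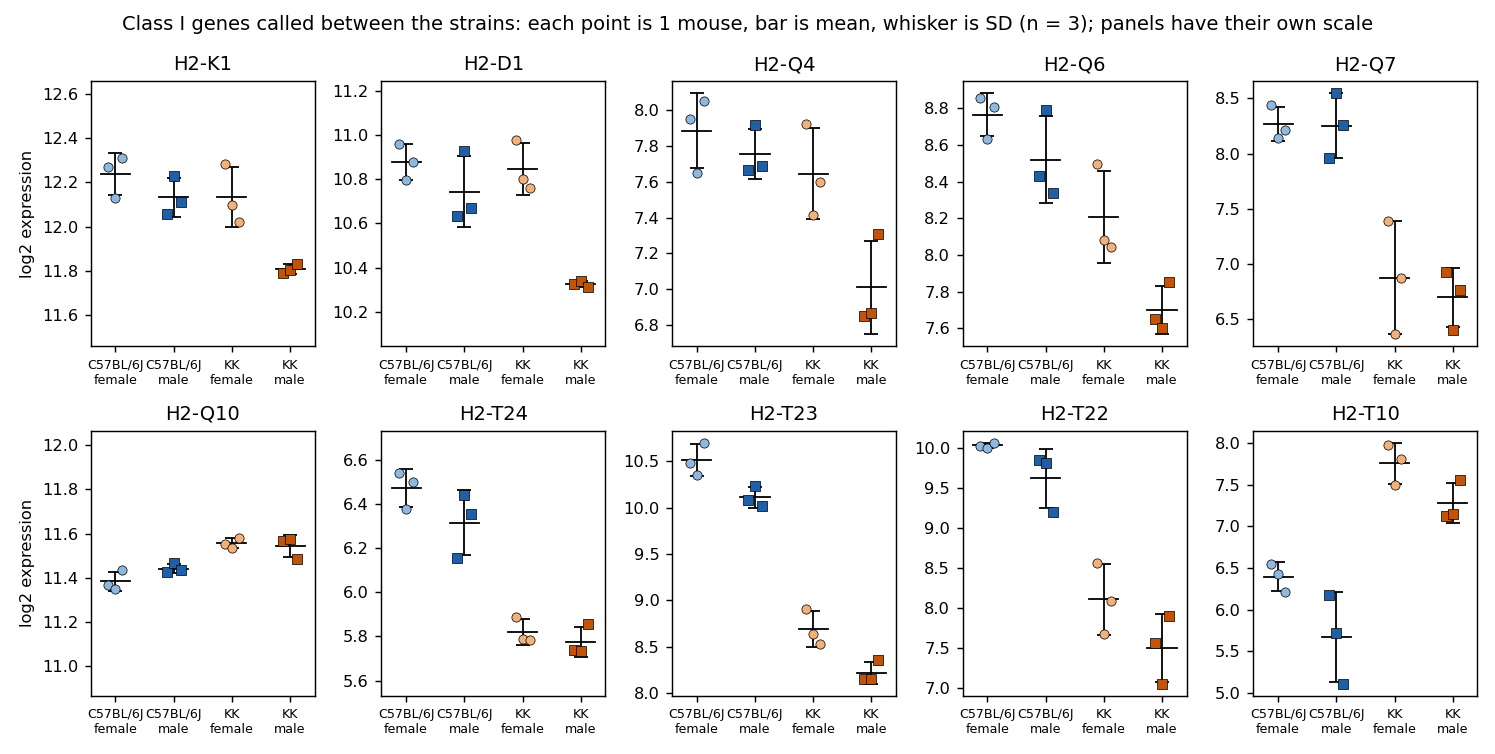
Deposited log2 expression of the 10 class I genes called between the strains, in each of the 12 mice, with group means (bars) and SD (whiskers, n = 3) and a separate vertical scale for each gene. KK mice lie apart from C57BL/6J mice for H2-Q7, H2-Q10, H2-T24, H2-T23, H2-T22 and H2-T10, and the KK males alone lie low for H2-K1, H2-D1 and H2-Q4.

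The classical genes H2-K1 and H2-D1, which supply the main peptide-presenting class I molecules of the cell surface, were slightly lower in KK over both sexes. H2-K1 had 12.27, 12.13 and 12.31 in C57BL/6J females, 12.06, 12.23 and 12.11 in C57BL/6J males, 12.29, 12.10 and 12.02 in KK females, and 11.79, 11.80 and 11.83 in KK males. The 3 KK males were the lowest of the 12 mice, and the other groups overlapped. The strain difference was -0.21 log2 over both sexes (SE 0.06, 1.16-fold lower, adjusted p = 0.030), -0.33 in males (1.25-fold, adjusted p = 0.038) and -0.10 in females (adjusted p = 0.65).

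H2-D1 had the same layout. It read 10.96, 10.80 and 10.88 in C57BL/6J females, 10.63, 10.93 and 10.67 in C57BL/6J males, 10.98, 10.80 and 10.76 in KK females, and 10.33, 10.34 and 10.31 in KK males. KK males again lay below all other mice. Over both sexes the difference was -0.23 log2 (SE 0.06, 1.17-fold lower, adjusted p = 0.034), with -0.42 in males (1.34-fold, adjusted p = 0.016) and -0.03 in females (adjusted p = 0.94). The test of the difference between the sexes gave -0.39 for H2-D1 (adjusted p = 0.58) and -0.22 for H2-K1 (adjusted p = 0.83), so neither was called.

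These classical calls lay near the threshold. Over both sexes H2-K1 lost its call without C57BL/6J female 1 or 3, C57BL/6J male 2 or 3, KK female 2 or 3, or KK male 1 or 2 (highest adjusted p 0.0860). H2-D1 lost it without C57BL/6J female 1 or 3, C57BL/6J male 2, KK female 2 or 3, or any KK male (highest adjusted p 0.135). Among the male mice, the H2-D1 call was lost without C57BL/6J male 2 or KK male 1 (highest adjusted p 0.0582). The male call of H2-K1 was lost without C57BL/6J female 1, any C57BL/6J male or any KK male (highest adjusted p 0.152).

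The M series lies at the far end of the complex and includes H2-M3, which shows formylated peptides, and the H2-M10 genes, which are known from vomeronasal neurons. None of its 12 genes was called over both sexes, with differences from -0.16 to 0.16 and group means of 3.53 to 5.79. H2-M3 had group means of 5.69 to 5.79. H2-K2 and H2-Bl, which RefSeq lists as transcribed pseudogenes, differed between the strains by -0.06 (adjusted p = 0.85) and 0.03 (adjusted p = 0.85). H2-Ke6 had group means of 8.74 to 8.94 and a strain difference of -0.10 (adjusted p = 0.28).

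Class II transcripts varied widely from mouse to mouse, and none was called between the strains. H2-Aa, the alpha chain of the I-A molecule, had 8.92, 8.33 and 8.94 in C57BL/6J females, 8.19, 9.51 and 8.45 in C57BL/6J males, 9.60, 8.63 and 7.92 in KK females, and 7.29, 7.35 and 7.96 in KK males. KK female 1 and C57BL/6J male 2 were the highest of all mice and KK males 1 and 2 the lowest. Over both sexes the difference was -0.60 log2 (SE 0.29, adjusted p = 0.25). Within males it was -1.18 (SE 0.41, adjusted p = 0.14), and within females it was -0.01 (SE 0.41, adjusted p = 0.997).

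H2-Ab1, the beta chain of I-A, had values of 8.23, 7.85 and 8.56 in C57BL/6J females, 7.69, 9.15 and 7.81 in C57BL/6J males, 9.11, 8.10 and 7.55 in KK females, and 7.10, 6.99 and 7.72 in KK males. The same pair of mice was highest, and the strains overlapped in both sexes. Its strain difference was -0.45 log2 (SE 0.30, adjusted p = 0.45). H2-Eb1, the beta chain of the other class II molecule, I-E, had 8.13, 7.85 and 8.13 in C57BL/6J females, 7.74, 8.55 and 7.95 in C57BL/6J males, 8.74, 8.23 and 7.62 in KK females, and 7.54, 7.33 and 7.80 in KK males. Here too KK female 1 and C57BL/6J male 2 were the highest, and the difference was -0.18 log2 (SE 0.18, adjusted p = 0.67).

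H2-Ea encodes the alpha chain of I-E, and C57BL/6J mice are known not to transcribe it. It lay close to the level of untranscribed genes in every mouse: 4.68, 4.85 and 4.84 in C57BL/6J females, 4.81, 4.84 and 4.94 in C57BL/6J males, 4.71, 4.74 and 4.71 in KK females, and 4.88, 4.77 and 4.84 in KK males. The strains overlapped, with a difference of -0.05 log2 (SE 0.05, adjusted p = 0.62).

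The other class II genes act in peptide loading or are little studied. H2-DMa and H2-DMb1 or H2-DMb2 form the exchanger that loads peptides, and H2-Oa and H2-Ob form its modulator. Their group means were 5.03 to 5.25 for H2-DMa, 5.97 to 6.38 for H2-DMb1, 5.77 to 6.08 for H2-DMb2, 4.94 to 4.99 for H2-Oa and 5.15 to 5.30 for H2-Ob, and those of H2-Eb2 were from 4.80 to just under 5. None was called over both sexes. H2-Eb2 and H2-Oa, like H2-Ea, lay near the level of untranscribed genes, and H2-DMa and H2-Ob a little above it. A difference in these genes may not show. Of the 10 class II genes, 0 were called by limma in any of the 6 comparisons, and 0 had an unadjusted p under 0.05 for the strain difference over both sexes, where 22.7% of all probe sets did. Their median difference was -0.06 log2.

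Cd74, the invariant chain that guides class II chains through the cell, had 7.62, 6.97 and 8.02 in C57BL/6J females, 7.25, 8.03 and 7.27 in C57BL/6J males, 8.87, 7.86 and 7.28 in KK females, and 6.80, 6.83 and 7.23 in KK males. KK female 1 was highest and C57BL/6J male 2 came next, and the strains differed by -0.05 log2 (SE 0.26, adjusted p = 0.95). The mean of 9 Kupffer cell and macrophage markers was 8.34 to 8.53 in C57BL/6J females, 7.79 to 8.46 in C57BL/6J males, 8.26 to 9.02 in KK females and 7.34 to 7.71 in KK males. It was highest in KK female 1, and within the C57BL/6J males in male 2, as Cd74 was. In C57BL/6J females the marker mean was highest in female 1 and Cd74 in female 3. In bulk tissue, fewer cells of a type and less RNA per cell cannot be told apart, and the part of these cells in the class II values was not tested.

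**Figure D3:**
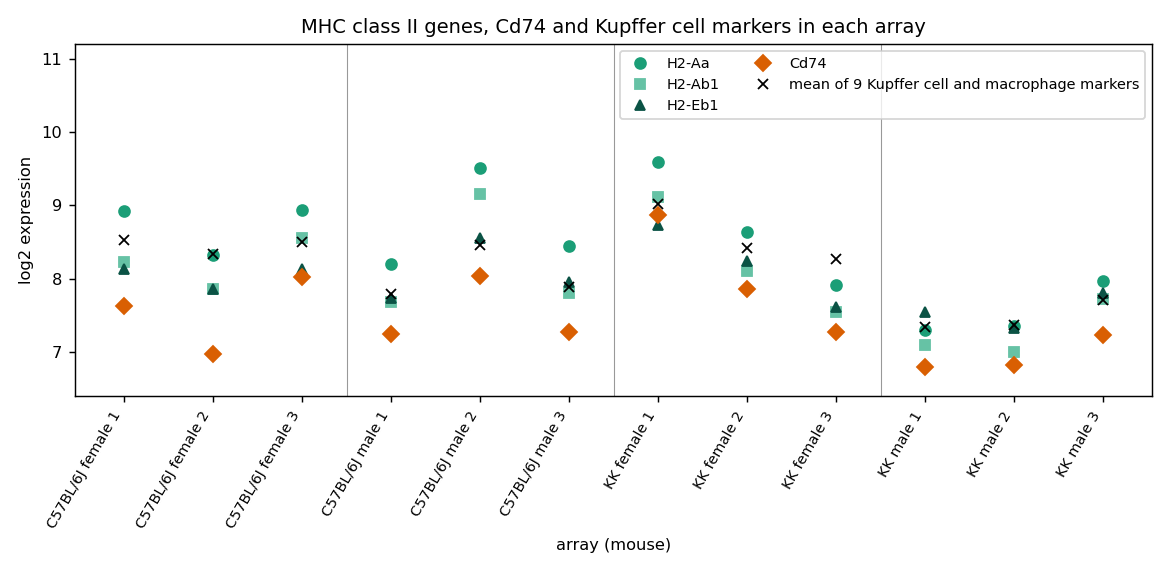
Deposited log2 expression of H2-Aa, H2-Ab1, H2-Eb1 and the invariant chain Cd74 in each of the 12 mice, with the mean of 9 Kupffer cell and macrophage markers (crosses). All 5 series are highest within their groups in KK female 1 and C57BL/6J male 2, and KK males 1 and 2 have the lowest values of H2-Aa, H2-Ab1, H2-Eb1 and Cd74.

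Without KK female 1 and C57BL/6J male 2 together, an alternative chosen after their values were seen, the strain difference of H2-Aa was -0.62 (adjusted p = 0.077), that of H2-Ab1 -0.43 (adjusted p = 0.20) and that of H2-Eb1 -0.20 (adjusted p = 0.48). With array weights H2-Aa was called (-0.91, adjusted p = 0.038). Without C57BL/6J male 2 alone H2-Aa differed by -0.40, H2-Ab1 by -0.22 and H2-Eb1 by -0.06. Over all 20 alternatives the difference ranged from -0.91 to -0.40 for H2-Aa. It ranged from -0.70 to -0.22 for H2-Ab1 and from -0.34 to -0.04 for H2-Eb1.

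Within females, 6 H2 genes were called between the strains, 5 lower (H2-Q6, H2-Q7, H2-T22, H2-T23 and H2-T24) and 1 higher (H2-T10) in KK, with 6.5% of all probe sets called (3.31% lower and 3.18% higher). Within males, 9 were called, the same 6 genes and H2-K1, H2-D1 and H2-Q4, all 3 lower in KK, with 5.15% of all probe sets called (3.06% lower and 2.08% higher). The values of the strains did not overlap for 10 H2 genes in females (20.6% of all probe sets) and for 14 in males (21.7%). The test of whether the strain difference itself differs between the sexes called 0 of the 39 genes with limma (0.141% of all probe sets). For none of them was the strain difference shown to depend on sex. At an unadjusted p under 0.05 that test gave 3 genes, H2-D1, H2-Q4 and H2-DMb1 (6.35% of all probe sets). H2-DMb1 differed by 0.42 in females and by -0.05 in males.

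**Figure D4:**
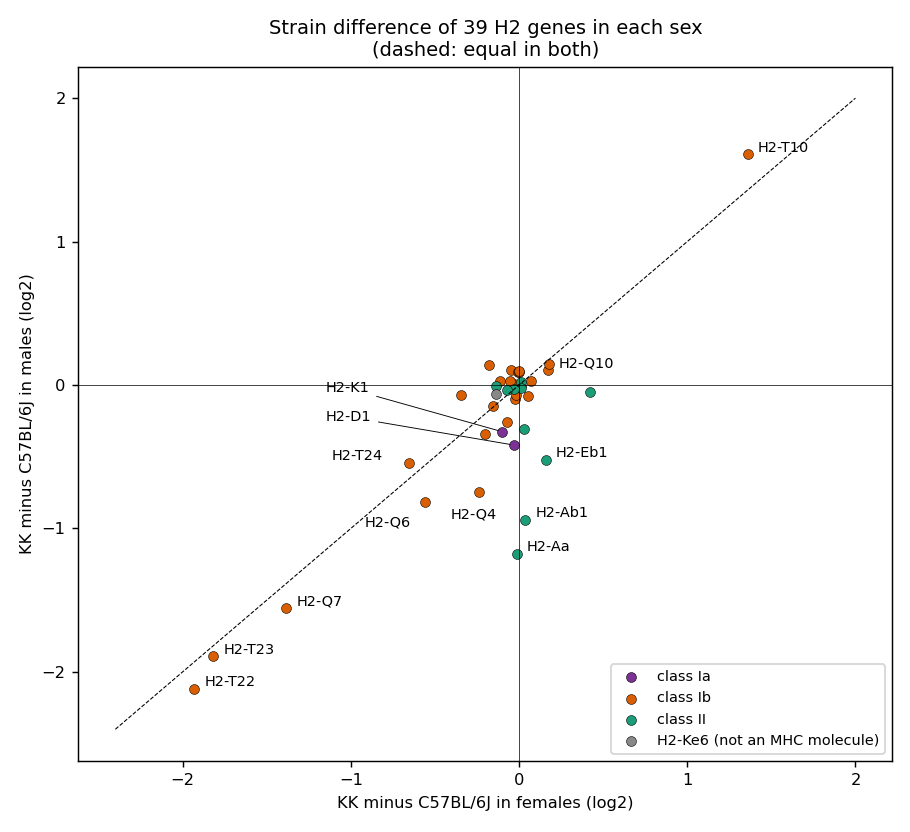
Strain difference (KK minus C57BL/6J, log2) of the 39 H2 genes in females (horizontal axis) against males (vertical axis), coloured by class, with a dashed line where both are equal. H2-T22, H2-T23, H2-Q7 and H2-T10 lie near the line, while H2-Aa, H2-Ab1, H2-D1 and H2-K1 lie near 0 in females and below 0 in males.

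Between the sexes, 1 H2 gene was called, the classical gene H2-D1 in KK. It was lower in KK males than in KK females by -0.52 log2 (SE 0.09, 1.43-fold, adjusted p = 0.010), with no overlap between the 3 males (10.31 to 10.34) and the 3 females (10.76 to 10.98). Among KK mice 2.17% of all probe sets were called (1.47% lower in males), and the H2-D1 call was lost without KK female 1 (adjusted p = 0.055). H2-K1 differed by -0.33 (adjusted p = 0.064), H2-Q4 by -0.63 (adjusted p = 0.062), H2-T23 by -0.47 (adjusted p = 0.059), H2-K2 by -0.63 (adjusted p = 0.069) and H2-Q6 by -0.51 (adjusted p = 0.10), with KK males below all KK females in each. At an unadjusted p under 0.05 there were 12 H2 genes, 10 lower and 2 higher in males (15.7% of all probe sets). H2-Aa was among them at -1.18 (adjusted p = 0.19). The sexes did not overlap in KK for 7 H2 genes (18.6% of all probe sets).

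In C57BL/6J, limma called 0 H2 genes between the sexes, where 1.03% of all probe sets were called. At an unadjusted p under 0.05 there were 5 (H2-T10, H2-K2, H2-T23, H2-Q1 and H2-Bl), all lower in males, against 8.17% of all probe sets. The sexes did not overlap in C57BL/6J for 6 H2 genes (13.1% of all probe sets). H2-T10 differed by -0.73 (adjusted p = 0.26) and H2-D1 by -0.13 (adjusted p = 0.86). All 9 Kupffer cell and macrophage markers had a lower mean in KK males than in KK females, and 8 were called (1.47% of all probe sets were called lower). In C57BL/6J, limma called 0 of 9 between the sexes (2 at an unadjusted p under 0.05). The count of 8 fell to 4 without KK female 1 and to 3 without KK male 1 or KK male 2. Whether this difference had a part in the values of H2-D1 was not tested.

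Peptide loading and transcriptional control were read from lists of their known genes. Of 14 measured genes of class I loading, 1 was called over both sexes, where 11.7% of all probe sets were called. It was Tap2, one chain of the transporter that brings peptides into the endoplasmic reticulum (0.19 log2 higher in KK, SE 0.05, adjusted p = 0.039). That call was lost without any single array except C57BL/6J male 1 and KK male 1 (highest adjusted p 0.0905). B2m, the light chain that every class I molecule above needs, had 13.29, 13.18 and 13.20 in C57BL/6J females, 13.18, 13.24 and 13.23 in C57BL/6J males, 13.31, 13.11 and 13.12 in KK females, and 12.99, 13.05 and 13.10 in KK males. It differed by -0.10 (SE 0.05, adjusted p = 0.24), with the 3 KK males lowest. Between the sexes in KK, 1 of the 14 genes was called, Tapbp, lower in males (-0.47, SE 0.09, adjusted p = 0.018). Of all probe sets, 1.47% were called lower in that comparison. The Tapbp call was lost without KK female 1, KK male 1 or KK male 2 (highest adjusted p 0.095). Nlrc5, the class I transactivator, was not analysed here.

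Of 9 genes of class II loading and control, only Rfx5, a factor that binds class II promoters, was called (-0.42 log2, SE 0.09, adjusted p = 0.011), where 11.7% of all probe sets were called. Its values were 6.26 to 6.61 in C57BL/6J and 5.64 to 6.33 in KK, which overlap. Ciita, the master activator of class II, had group means from 4.91 to just under 5, near the level of untranscribed genes. Its difference was -0.04 (adjusted p = 0.82). In KK, 3 of these 9 genes were lower in males than in females (1.47% of all probe sets were), and 0 were without KK female 1, KK male 1 or KK male 2 (2 without C57BL/6J female 1 and 1 without KK female 2).

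Among 13 genes of the interferon axis, which drives class I and class II transcription, 4 were called lower and 1 higher in KK. Of all probe sets, 6.31% were called lower and 5.42% higher. Irf1, an activator of class I promoters, differed by -0.63 (SE 0.12, adjusted p = 0.0040), with 7.61 to 8.29 in C57BL/6J and 7.05 to 7.75 in KK. Irf9, part of the type I interferon complex, differed by -0.58 (adjusted p = 0.013), and Ifngr2, a chain of the interferon gamma receptor, by -0.39 (adjusted p = 0.0055). Irf2, a relative of Irf1 that can repress its targets, differed by 0.50 (adjusted p = 0.0095). The last call was Irf7 at -0.74 (adjusted p = 0.020), which was lost without C57BL/6J female 1 or 3 or KK male 1 or 2 (highest adjusted p 0.0551) and is named beyond the 4 smallest adjusted p after its value was seen. The median of the 13 was -0.09 log2.

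Of 11 MHC-like genes outside the H2 complex, 2 were called lower and 2 higher in KK (6.31% and 5.42% of all probe sets). Fcgrt, the heavy chain of the neonatal Fc receptor that rescues antibodies and albumin, was 10.83 to 11.12 in C57BL/6J and 9.78 to 10.31 in KK, with no overlap (-0.93 log2, SE 0.05, adjusted p = 1.7e-07). Raet1e, a ligand of the killer cell receptor NKG2D, differed by -0.61 (adjusted p = 9.0e-04), and its relative Raet1d by 0.77 (adjusted p = 0.025). Mr1, which shows vitamin metabolites to mucosal-associated T cells, differed by 0.54 (adjusted p = 0.011). The Raet1d call was lost without C57BL/6J female 1, C57BL/6J male 2 or 3, KK female 2 or 3, or KK male 1 or 2 (highest adjusted p 0.0672).

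Markers of the cells that could carry these transcripts were read in the same way. Over both sexes, 3 of 9 Kupffer cell and macrophage markers were called lower in KK (Marco -0.74, Clec4f -0.41, Adgre1 -0.59), and 8 of 9 had a negative difference. Of all probe sets, 6.31% were called lower in this comparison. Marco alone of the 3 kept its call without any single array. Clec4f lost its call without C57BL/6J female 1 or 2, C57BL/6J male 2, KK female 2 or 3, or KK male 1 or 2, and Adgre1 without those arrays or C57BL/6J female 3 (highest adjusted p 0.0734 and 0.101). The sexes differed in this list. Within females, 5 of the 9 markers were higher and 4 lower in KK (median 0.27), with 1 called, lower (3.31% of all probe sets). Within males, all 9 were lower in KK (median -0.61), with 2 called (3.06% of all probe sets). Of 8 markers of sinusoidal endothelium, 3 were called lower in KK over both sexes (Lyve1 -0.74, Fcgr2b -0.40, Oit3 -0.26), and of 9 dendritic cell markers 1 was (Clec9a -0.40). Of the hepatocyte markers, 1 of 8 was called lower (Apoa1 -0.34). The calls of Oit3 (7 single arrays) and Clec9a (C57BL/6J female 1 or 3 or male 2) depended on arrays in the same way, with highest adjusted p of 0.0611 and 0.0556. Limma called 0 of 6 B cell and 0 of 12 T cell and NK cell markers (1 of each at an unadjusted p under 0.05), and the means of these lists were 4.86 to 5.12 and 4.74 to 5.01 in all arrays, near the level of untranscribed genes. The part of these cell types in the strain differences of the H2 genes was not tested.

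The position of the genes was compared with that of their neighbours. The RefSeq order of chromosome 17 placed 38 of the 39 H2 genes in a block from H2-K2 to H2-M2, all except H2-Q8, with 127 measured genes without an H2 symbol between them. Of these neighbours, 13 were called over both sexes, 3 higher and 10 lower in KK, a share near the 11.7% of all probe sets called. The 4 with the largest differences were C4a (0.91, adjusted p = 0.0012), a form of complement component 4, Apom (-0.66, adjusted p = 1.7e-04), an apolipoprotein that carries sphingosine phosphate, Gtf2h4 (-0.60, adjusted p = 1.4e-05), a subunit of transcription factor TFIIH, and Znrd1 (-0.51, adjusted p = 6.1e-04), a subunit of RNA polymerase I. None of these 4, picked for their large differences, overlapped between the strains. Among all 127 neighbours, 7 did not overlap, against 5.98% of all probe sets.

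The called neighbours are given by interval, with 6.31% of all probe sets called lower and 5.42% higher, and the intervals were not tested against each other. Between H2-Q10 and H2-T24, 7 of 24 neighbours were lower and 0 higher in KK, and this count was 5 to 7 with single arrays left out. Between H2-T24 and H2-T3, which holds H2-T23, H2-T22 and H2-T10, 0 of 4 neighbours were called. The 58 neighbours between H2-Ea and H2-D1 held 3 calls, 2 higher and 1 lower, the 10 between H2-K2 and H2-Ea held 1, and the 31 from H2-T3 to H2-M2 held 2, both lower. All 8 called class Ib genes lay from H2-Q4 to H2-T10.

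**Figure D5:**
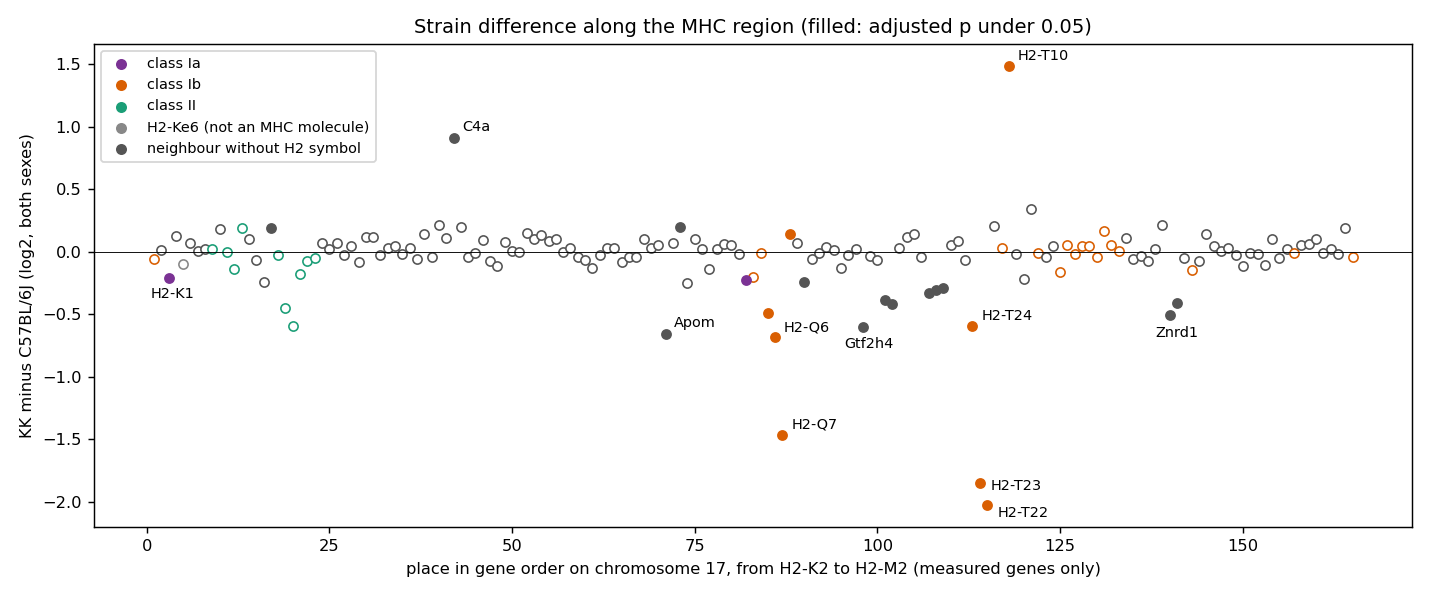
Strain difference (KK minus C57BL/6J over both sexes, log2) of the measured genes of the MHC block of chromosome 17 in their RefSeq order, equally spaced, with H2 genes coloured by class, neighbours in grey and called genes filled. The filled points of the class Ib genes lie from H2-Q4 to H2-T10, and the class II genes near the left end are open.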

How the data were processed

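Liver RNA of 12 mice was measured on 12 arrays. The deposited log2 expression values were made by the authors with RMA and the affy package, per the submitters' processing notes, which give no versions; the probe set annotation and genome build are not given in the sources used here. RMA normalizes the arrays together, so scanner signals, single probes and detection calls were not analysed here, and the number of mice limits the precision. The probe sequences were not used, so whether KK sequence differences or similar H2 genes affect a probe set was not tested. Symbols came from the platform's table: 18786 probe sets had 1 symbol, 6 several and 2420 none. Gene order and promoters came from RefSeq.

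A linear model with 1 mean for each strain and sex was fitted to all 12 arrays, with no filter, by lmFit and eBayes of limma 3.58.1 (R 4.3.3). Tests were two-sided, and p-values were adjusted by the Benjamini-Hochberg method over all 21212 probe sets in each of 6 comparisons. SE is limma's and SD is over 3 mice. Differences and their signs are KK minus C57BL/6J or male minus female. The pipeline was tested on simulated data. The p-values test differences of group means against the spread between mice within the groups.

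The H2 genes, gene lists and alternatives were chosen with earlier results of these data known. Values in every array are given for members called in any comparison and for H2-K1, H2-D1, H2-Aa, H2-Ab1, H2-Eb1 and H2-Ea. From the lists, up to 4 genes called over both sexes with the smallest adjusted p are named, and B2m, Cd74 and Ciita; members given for an unadjusted p or a near miss, and list genes beyond these, were picked after their values were seen. Alternatives were quantile or cyclic loess normalization, only probe sets above the median, limma array weights, a robust prior with an intensity trend, the interquartile range as a covariate, the replicate number as a block, only the compared groups, each array left out, and 2 arrays left out together.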

Additional observations from a re-analysis of the deposited data

How the results depend on the processing

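Over both sexes, H2-Q4, H2-Q6, H2-Q7, H2-T10, H2-T22, H2-T23 and H2-T24 kept their direction and call in all 20 alternatives run. H2-K1 lost its call in 9, H2-D1 in 10 and H2-Q10 in 12, with no change of sign. The strain count was 7 to 13 of the H2 genes over both sexes (10 as reported), 5 to 8 in females and 6 to 10 in males. The KK sex count moved most, from 1 to 3 with quantile normalization, 2 with cyclic loess, 4 with probe sets above the median, 4 with an intensity trend and robust prior, 7 with array weights, and 0 to 3 with 1 array left out. The count was 0 in all alternatives for the C57BL/6J sex difference and for the interaction. The cause of these moves was not tested. With the replicate number as a block the counts were 10, 6, 9, 0, 1 and 0, which changed no call. Same-numbered arrays of different groups deviated together in 10 of 18 pairs (correlation over 0.1, range -0.36 to 0.48). The mean over the 18 pairs was 0.15, and 8 of 12 arrays were closest to their own number. The mean for other numbers, -0.077, adds no separate evidence, since deviations from a group mean cancel within the group. The likeness of same-numbered arrays is a hint of a shared factor from the data, not the design. As not every pair was over 0.1, the numbers were not taken to pair the samples. Other scalings moved the median of all probe sets by under 0.1 log2. With 3 mice per group, small differences lie near the threshold. Low M series and class II signals may not show any.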
